A study of Haemaphysalis flava with 2 samples.

Results

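The mitochondrial machinery described here comprises 40 unigenes, out of 65535 in the expression table, whose protein description names a mitochondrial ribosomal protein, a subunit of a mitochondrial import translocase, a mitochondrial carrier or a prohibitin. A unigene is an assembled transcript or transcript fragment, under the name given in the deposited table. The members were found by their words alone: the description of the best hit in the Nr protein database was searched for the terms 28S, 39S or mitochondrial ribosomal, mitochondrial import, translocase of inner or outer, mitochondrial carrier or solute carrier, ADP/ATP and prohibitin, leaving out mitoferrin. Of the 40, 39 were named by Nr and 1 by UniProt, which was read where Nr gave no hit. The search words themselves use no expression value.

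The material was midgut of the hard tick Haemaphysalis flava, taken from ticks that were fully engorged (FE) or partially engorged (PE) with blood. Each state was sequenced as 1 library of polyadenylated RNA. The design text counts 60 dissected midguts, 30 of each state, and does not say how many were pooled in a library; age, sex, host and days of feeding were not stated. No agent or genetic change separates the states, so they differ by feeding state as labelled, and with 1 library each no difference below has a replicate check.

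Mitochondria keep a small genome of their own, and the few proteins it encodes, core subunits of the respiratory chain, are made inside the organelle by the mitochondrial ribosome. All protein subunits of that ribosome are encoded in the nucleus, made in the cytosol and imported. Import runs through the TOM complex of the outer membrane and then through TIM complexes of the inner membrane, while carriers of the SLC25 family move nucleotides, amino acids and other metabolites across the inner membrane. Prohibitins form ring complexes in the inner membrane that hold proteases and other proteins in place.

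The tables listed 35944321 reads in FE and 43831353 in PE, of implied library totals of 41432770 and 50397332. Levels are RPKM, reads scaled to the length of the unigene and to the library total, so they allow for unlike lengths. A level is that of the assembled unigene, which may be a fragment. Unigenes that match the same protein can therefore differ in level, as the TIM44 pair below does. The calls higher and lower in FE were made when the log2 of (FE RPKM + 1)/(PE RPKM + 1) was at least 1 or at most -1, the 95% exact (Clopper-Pearson) counting interval of the ratio excluded 1, and at least 1 RPKM was reached in a library, which 44982 unigenes did. The median log2 ratio of these was 0.36 and not 0, and a TMM factor, which trims extreme unigenes before scaling the libraries, shifted the scale by 0.39 on the log2 scale. Medians of lists are therefore also given relative to the median of all unigenes, as the relative median. Unigenes with midgut words such as cathepsin, legumain, chymotrypsin and peritrophin were present in both libraries, 36 of 39 passing the filter, with a summed level of 4189 RPKM in FE and 12125 in PE, 11 higher in FE and 17 lower. Muscle words marked 57 passing unigenes of 72, with sums of 3787 RPKM in FE and 4180 in PE, although 8 of them were higher in FE and none lower. Nervous tissue words marked 33 of 44, with sums of 262 and 163 RPKM, 16 higher and none lower, or 11 and 1 with the TMM factor. Their median level was 1.09 RPKM, close to the filter of 1 RPKM. Salivary gland words marked 97 of 112, with sums of 6435 RPKM in FE and 20292 in PE that abundant unigenes such as Contig2521 dominate, while 39 were higher and 28 lower. Words of the ovary and fat body marked 16 of 17, with sums of 7105 and 19996 RPKM, 7 higher and 7 lower, and no unigene carried a word for host blood protein. Over all 44982 unigenes 25.7% were called higher and 11.1% lower. Muscle words had 14% higher, below that share, and nervous tissue words 48.5%. The part of such tissues in the results was not tested, and in whole midguts fewer cells of a type cannot be told apart from less RNA per cell.

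Every member was transcribed in both libraries, and most members were called neither higher nor lower. Of the 40 members 6 were higher in FE, none was lower, and 34 were neither; all 40 passed the filter. Among all 44982 unigenes 25.7% were called higher and 11.1% lower, so the 15% of members called higher is a smaller share than that of the background. Among unigenes at the members' usual level, a mean of 5 to 150 RPKM, 30.4% were called higher and 11.6% lower. The 6 were the ribosomal proteins L44, L41, S29, S24 and a 28S protein named S22 by UniProt, together with the carrier translocase Tim22. With the TMM factor only L44 and S29 kept the call, against a background of 18.3% higher and 15.6% lower. At a threshold of 1.5-fold 17 members were higher and none lower, against 40.5% and 18.6% of all unigenes.

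The members took 79942 reads in FE and 73705 in PE, and their RPKM summed to 1929 in FE and 1454 in PE. Their log2 ratios ran from -0.55 to 1.49 with a median of 0.50, a relative median of 0.14. The spread was narrower than that of all unigenes: the interquartile range was 0.69 for the members and 1.36 for all that passed, on the log2 scale. Of the members 22 lay above the median of all unigenes and 18 below it. Across the 40 members the FE level followed the PE level, with a Pearson's r of 0.88 and a Spearman's rho of 0.75 on log2(RPKM + 1), or 0.81 and 0.73 without the scarcest member. This describes 2 libraries that share the same unigenes and lengths.

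**Figure D1:**
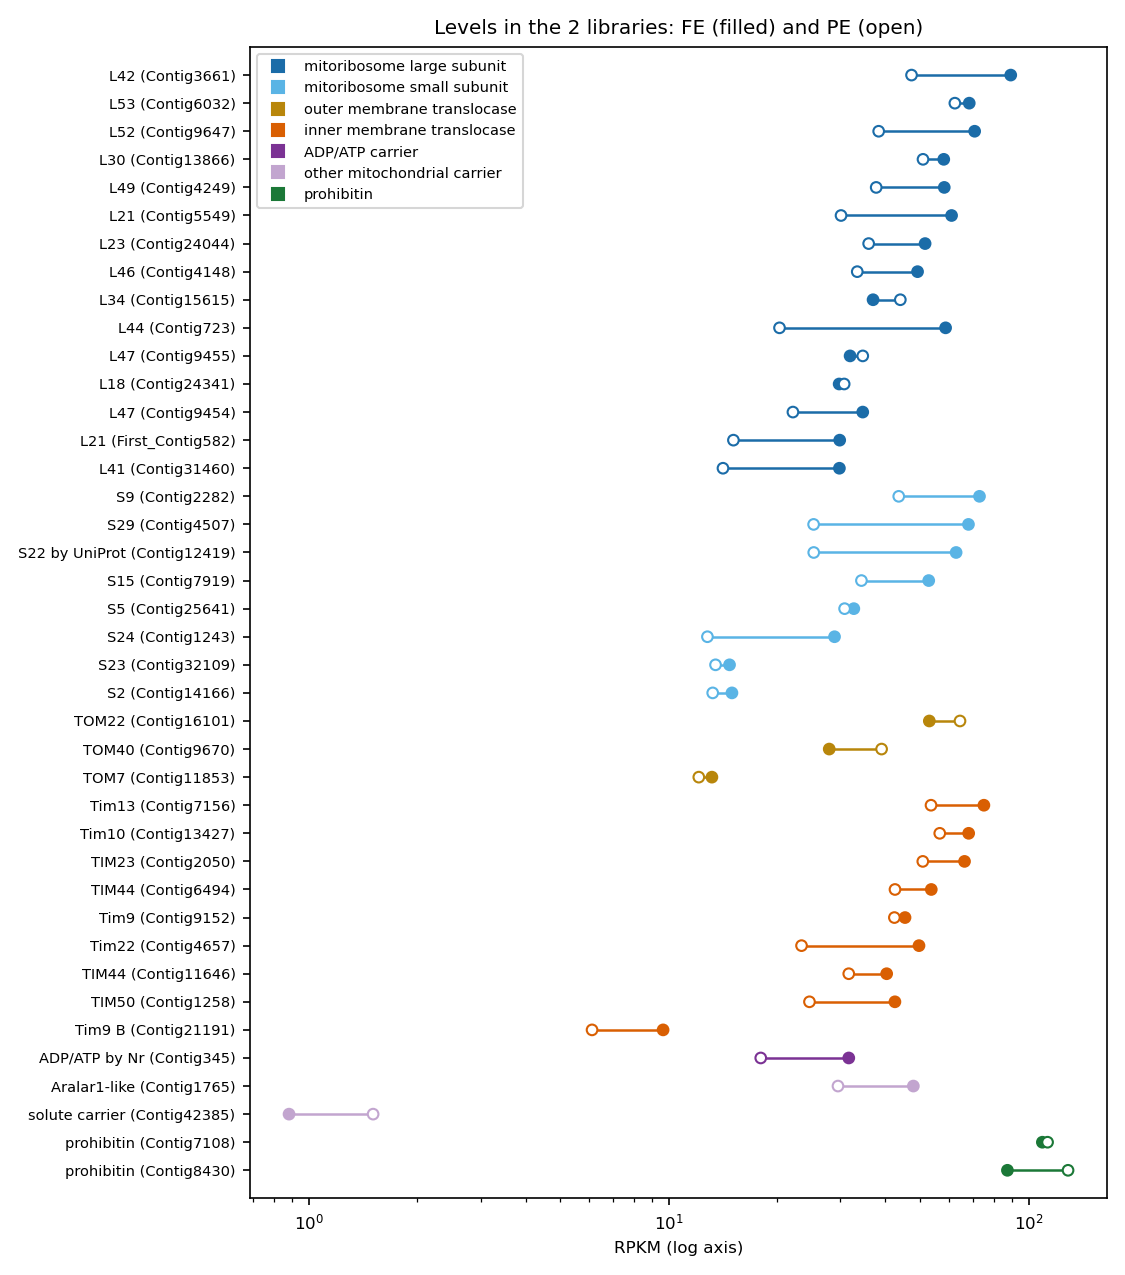
Level of each member in RPKM (log axis) in the FE library (filled) and the PE library (open), coloured by role; each point is 1 library. Most members sit between 10 and 150 RPKM in both libraries, 32 of 40 have the filled point to the right, and the other 8 are L34, L18, 1 of the L47 pair, TOM22, TOM40, the solute carrier and the 2 prohibitins. Over all 44982 unigenes that passed the filter, 28754 had more RPKM in FE.

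Roles differed in where their medians lay. Both ribosomal subunits lay above the median of all unigenes, the inner membrane translocases lay on it, and the outer membrane translocase and the prohibitins lay below it. The 23 mitoribosomal unigenes had a relative median of 0.26, with summed levels of 1107 RPKM in FE and 716 in PE. The 9 TIM unigenes had a relative median of 0.02, the 3 TOM unigenes -0.64 and the 2 prohibitins -0.66. Groups of 2 or 3 unigenes give medians that rest on single values, and differences between roles have no test.

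Of the 15 unigenes of the large ribosomal subunit, 2 (13.3%) were higher in FE and 13 were neither. This is a smaller share than the 25.7% called higher over all unigenes, of which 11.1% were lower. The largest ratio of the 40 members belonged to L44 (Contig723), a protein with a ribonuclease III fold on the large subunit. It had 4253 reads in FE and 1787 in PE, or 58.8 and 20.3 RPKM, which is 2.895-fold higher in FE (95% counting interval 2.74 to 3.06). Its hit spans residues 1 to 320 of a tick protein of 337, and its UniProt name is a ribonuclease III domain protein. L41 (Contig31460), a mitochondrial subunit without a bacterial counterpart, was the scarcer of the 2 called, with 29.8 RPKM in FE against 14.2 in PE, a ratio of 2.11 (1.81 to 2.45). Its log2 ratio of 1.02 is just past the threshold, and the call was lost with the TMM factor (0.65).

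A set of 4 large-subunit unigenes stopped just short of the threshold. L21, which has a bacterial counterpart, was represented by 2 of them. Contig5549 had 61.1 RPKM in FE against 30.1 in PE, a log2 ratio of 0.997 after the added 1. First_Contig582 had 29.9 and 15.1 RPKM, a log2 ratio of 0.94. The 2 match overlapping stretches of the same tick protein, residues 7 to 73 and 46 to 124, with identities of 67.2% and 38.0%, and their UniProt hits lie mostly one after the other, at residues 30 to 144 and 134 to 192. Summed, the L21 reads gave a ratio of 2.01 (1.84 to 2.19). L42 (Contig3661) was the most abundant large-subunit unigene by the mean of the libraries, though L53 and L30 exceeded it in PE, with 89.3 RPKM in FE against 47.3 in PE, a ratio of 1.89 (1.79 to 1.99). It carries an older small-subunit name, S32, in UniProt. L52 (Contig9647) had 70.8 and 38.3 RPKM, 1.85-fold (1.71 to 1.99).

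A middle set had ratios on either side of the background shift. L49 (Contig4249) had 58.3 RPKM in FE and 37.7 in PE, L46 (Contig4148) 49.2 and 33.4, and L23 (Contig24044), which lines the exit of the peptide tunnel in ribosomes, 51.6 and 35.95. Their log2 ratios were 0.62, 0.54 and 0.51, above the median of all unigenes by 0.15 to 0.26. L30 (Contig13866) had 58.1 and 50.9 RPKM, and L53 (Contig6032) 68.4 and 62.4. The log2 ratios of these 2, 0.19 and 0.13, lay below the median of all unigenes. The name of Contig6032 is uncertain, because its UniProt hit is a secreted protein read from the opposite strand.

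The lowest ratios of the large subunit were those of L34, Contig9455 of the L47 pair and L18. L34 (Contig15615), the small protein that is conserved from bacteria, had 37.0 RPKM in FE against 44.0 in PE, 1.19-fold in the direction of PE (1.09 to 1.30). L18 (Contig24341) had 29.8 and 30.7 RPKM in the same order, with a counting interval of the ratio that includes 1 (0.88 to 1.06). L47, the mitochondrial relative of bacterial L29, was represented by a pair of unigenes with unlike values. Contig9454 had 34.6 RPKM in FE and 22.1 in PE, and Contig9455 had 31.9 and 34.6. Their counting intervals, 1.40 to 1.75 and 0.82 to 1.04, do not overlap, although both match the start of the same tick protein, residues 4 to 63 and 4 to 106. The summed L47 reads gave 1.22 (1.13 to 1.32). Whether the pair are 2 genes, alleles or splice forms cannot be told apart from the tables.

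In the small ribosomal subunit 3 of 8 unigenes (37.5%) were higher in FE and 5 were neither. Over all unigenes 25.7% were called higher and 11.1% lower. With the TMM factor 1 of the 8 was higher, against 18.3% of all unigenes. All 8 had more RPKM in FE than in PE. Of all 44982 unigenes 28754 also had more RPKM in FE, and 5 of the 8 lay above the median of all. S29 (Contig4507), a GTP-binding subunit also known as DAP3 from its part in cell death, had 3648 reads in FE and 1647 in PE. Its levels were 68.1 and 25.3 RPKM, 2.69-fold (2.54 to 2.86), and its hit covers residues 20 to 408 of a mite protein of 409. The unigene described only as a 28S ribosomal protein (Contig12419), S22 by UniProt and KOG, had 62.9 and 25.3 RPKM, 2.49-fold (2.27 to 2.73). S24 (Contig1243), the mitochondrial counterpart of bacterial S3, had 28.9 and 12.8 RPKM, 2.26-fold (2.08 to 2.45). S29 kept its call with the TMM factor (log2 ratio 1.01), whereas S22 (0.90) and S24 (0.74) did not.

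The other 5 small-subunit unigenes fell into a pair with moderate ratios and 3 near 1. S9 (Contig2282), whose bacterial counterpart touches the tRNA in the peptidyl site, was the most abundant of the subunit in PE and in FE, with 73.1 RPKM in FE against 43.6 in PE, 1.68-fold (1.53 to 1.83). S15 (Contig7919) had 52.8 and 34.3 RPKM, 1.54-fold (1.44 to 1.64). S2 (Contig14166), S5 (Contig25641) and S23 (Contig32109) had 14.99 and 13.3, 32.7 and 30.8, and 14.8 and 13.5 RPKM in FE and PE. Their log2 ratios, 0.17, 0.08 and 0.12, lay below the median of all unigenes. The intervals of S5 (0.95 to 1.19) and S23 (0.91 to 1.32) include 1. The RNA ratios of the small-subunit unigenes thus ran from 1.06 to 2.69, and the counting intervals of S5 and S29 did not overlap.

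**Figure D2:**
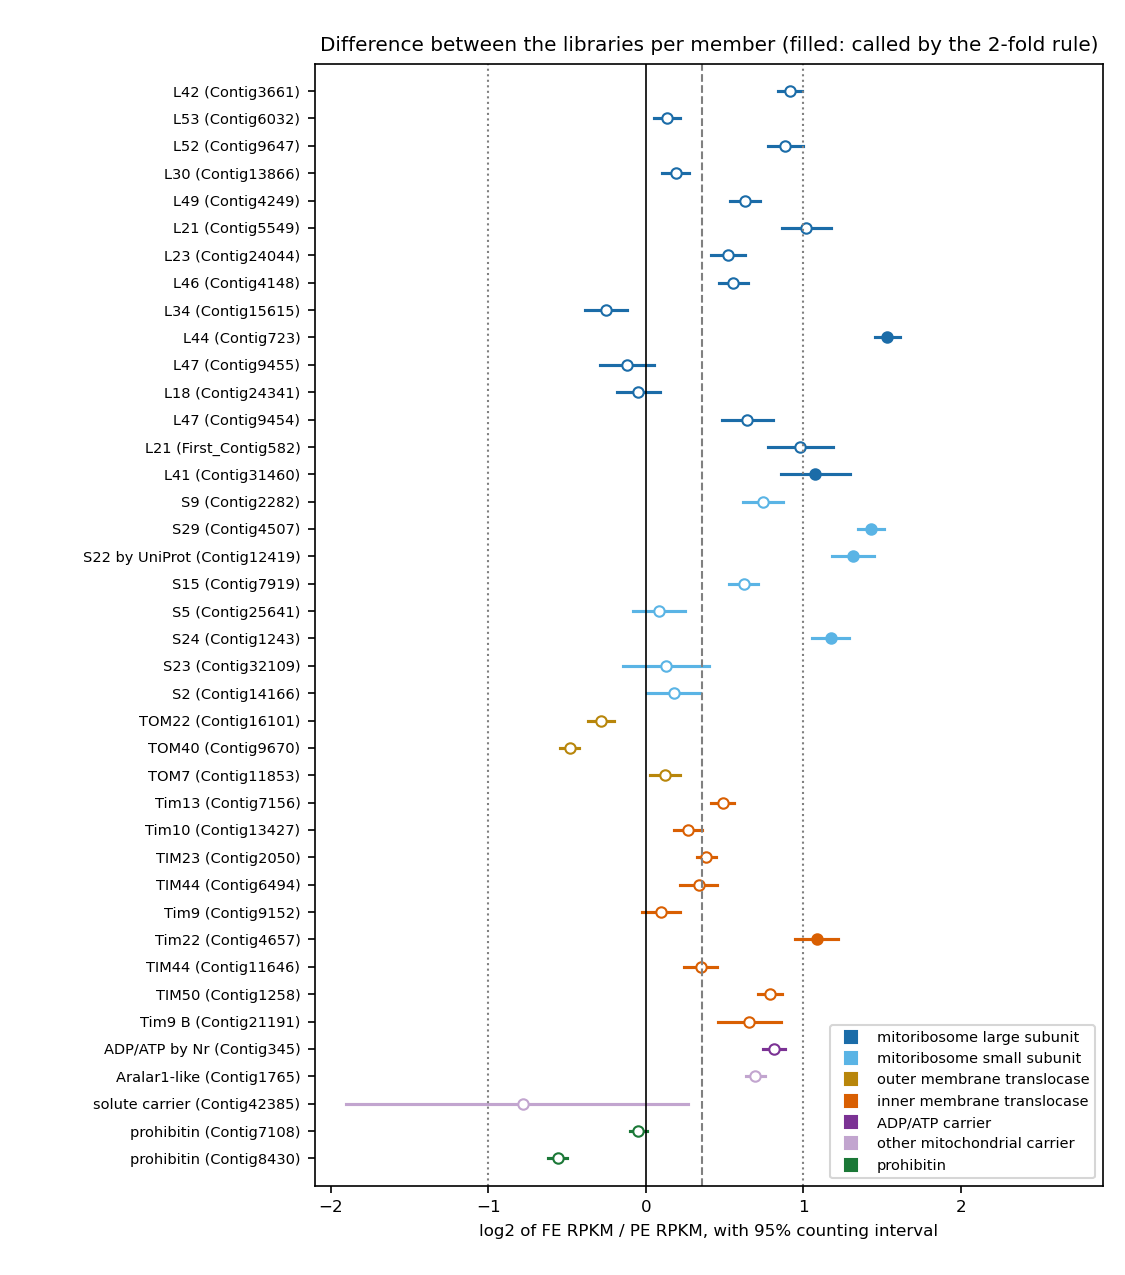
Log2 of the FE to PE ratio of RPKM per member with its 95% counting interval, coloured by role; filled points were called by the 2-fold rule, dotted lines mark -1 and 1, and the dashed line marks the median of all unigenes, 0.36. The 6 filled points are L44, L41, S29, S22, S24 and Tim22; points here lack the added 1 of the rule, so L21 (Contig5549) sits just past the dotted line without a call.

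All 3 subunits of the outer membrane translocase were called neither, and all 3 lay below the median of all unigenes. TOM40 (Contig9670), the barrel that forms the import pore, had 3531 reads in FE and 6005 in PE, or 27.9 and 39.1 RPKM, a ratio of 1.40 in the direction of PE (1.34 to 1.46). TOM22 (Contig16101), the receptor that hands precursors to the pore, had 53.01 and 64.5 RPKM, 1.22 in the same direction (1.15 to 1.29). TOM7 (Contig11853), a small subunit that affects assembly of the complex, had 13.2 and 12.1 RPKM. The TOM7 hit covers 53 residues on a unigene of 3213 nucleotides, 4.95% of its length, so its level speaks for the whole assembled transcript. TOM40 is likewise long, 3051 nucleotides, with a hit over the whole protein of 327 residues. Summed levels of the 3 were 94.1 RPKM in FE and 116 in PE. The 3 best hits are insect proteins, with none from a tick or mite.

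The inner membrane translocases held 9 unigenes, of which 1 (11.1%) was higher in FE and 8 were neither. Over all unigenes 25.7% were called higher and 11.1% lower. All 9 had more RPKM in FE. So did 28754 of all 44982 unigenes, and only 5 of the 9 lay above the median of all unigenes. The channel that takes up proteins with a cleavable presequence was represented by TIM23, its receptor TIM50 and TIM44, which ties the heat shock protein motor to the channel. TIM23 (Contig2050) had 66.4 RPKM in FE against 50.8 in PE, 1.31-fold (1.254 to 1.36). TIM50 (Contig1258) had 42.5 and 24.6 RPKM, 1.73-fold (1.64 to 1.82). TIM44 was found as 2 unigenes that match separate parts of a tick protein of 415 residues, 27 to 154 and 222 to 415. Contig6494 had 53.7 and 42.6 RPKM and Contig11646 had 40.3 and 31.7, with log2 ratios of 0.33 and 0.34. Unlike the L47 pair, the TIM44 pair gave the same ratio within counting error, and their summed reads gave 1.27 (1.202 to 1.34).

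Tim22, the core of the second inner membrane translocase, which inserts carriers and other proteins without a presequence, was the only import subunit among the members called higher. Contig4657 had 1217 reads in FE and 698 in PE, or 49.6 and 23.4 RPKM, 2.12-fold (1.93 to 2.33). The call was lost with the TMM factor, with a log2 ratio of 0.67 against 1.05. The small Tim proteins, chaperones that lead hydrophobic precursors through the space between the membranes to Tim22, did not share a ratio of this size. Tim13 (Contig7156) was the most abundant TIM unigene by the mean of the libraries, though Tim10 exceeded it in PE, with 75.2 RPKM in FE against 53.6 in PE, 1.40-fold (1.33 to 1.47). Tim10 (Contig13427) had 68.2 and 56.7 RPKM, and Tim9 (Contig9152), its partner in a ring complex, had 45.4 and 42.4. Their log2 ratios were 0.26 and 0.10, and the interval of Tim9 includes 1 (0.98 to 1.16). A unigene named Tim9 B-like (Contig21191) was scarcer than the rest, at 9.65 and 6.12 RPKM, 1.58-fold (1.37 to 1.81).

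Carriers were few under this wording, and none of 3 was called. Contig345, an ADP/ATP translocase by its Nr name, the carrier that exchanges cytosolic ADP for ATP made in the matrix, had 31.7 RPKM in FE against 18.0 in PE, 1.76-fold (1.67 to 1.84). Its identity is in doubt: KOG gives a predicted mitochondrial carrier protein, and its GO terms include calcium ion binding, so no level is claimed for the ADP/ATP carrier itself. The Aralar1-like unigene (Contig1765), a calcium-regulated carrier that exchanges aspartate and glutamate, had 47.9 and 29.5 RPKM, 1.62-fold (1.55 to 1.69). Contig42385, named a mitochondrial solute carrier from a hit of 26 residues, was the scarcest member by far, with 12 reads in FE and 25 in PE, or 0.880 and 1.51 RPKM. Its interval, 0.27 to 1.21, was the widest of the 40, and a difference was not detectable at this depth.

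The 2 prohibitins were the most abundant members, with mean levels of 111 and 108 RPKM, and neither was called. Contig7108, prohibitin by KOG, had 109 RPKM in FE against 113 in PE, with an interval of the ratio that includes 1 (0.93 to 1.004). Contig8430, prohibitin-like by KOG, had 3671 reads in FE and 6582 in PE, or 87.4 and 129 RPKM, 1.47 in the direction of PE (1.42 to 1.54). In animals the 2 prohibitins alternate in the same ring. Their counting intervals did not overlap, and the log2 ratio of Contig8430, -0.55, was the lowest of the 40 on the scale with 1 added. By plain RPKM the scarce Contig42385 was lower, at a ratio of 0.584 against 0.678.

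The values that chose the calls lay close together at the threshold. Inside it were S24 (1.11), Tim22 (1.05) and L41 (1.02) on the log2(RPKM + 1) scale, and outside it the 2 L21 unigenes (0.997 and 0.94), L42 (0.90), L52 (0.87), Contig345 (0.78) and TIM50 (0.77). Above these were the 3 highest, L44 (1.49), S29 (1.39) and S22 (1.28), although the counting intervals of the ratio overlap for S22 (2.27 to 2.73) and S24 (2.08 to 2.45). No member came near the lower threshold of -1.

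**Figure D3:**
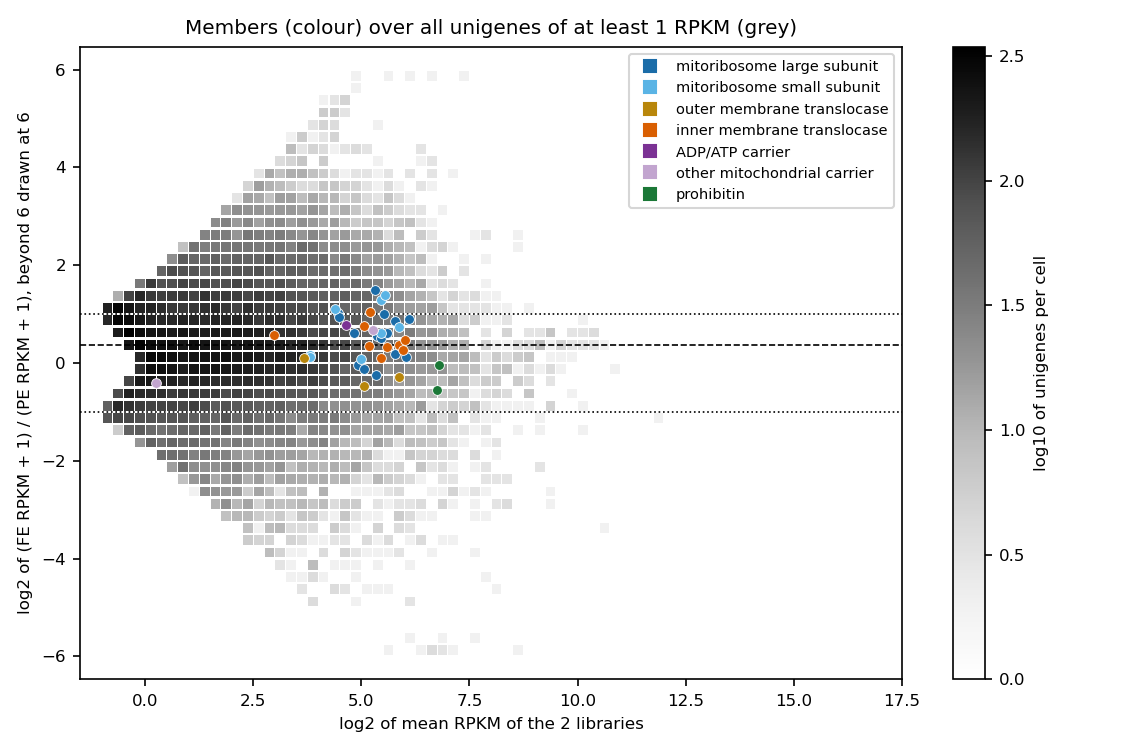
Log2 of the FE to PE ratio (RPKM + 1, values beyond 6 drawn at 6) against log2 of the mean RPKM for the members (coloured by role) over all unigenes of at least 1 RPKM (grey cells, darker for more unigenes); dotted lines mark -1 and 1 and the dashed line 0.36. The members form a band from -0.55 to 1.49 inside a cloud that extends past 4 in both directions.

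A false discovery rate under 0.05 was listed for 8 of the 40 members in the authors' deposited table, each with a PE to FE ratio below 1. The share over all unigenes that passed was 11.6%, and over those with a mean of 5 to 150 RPKM it was 25.2%, so the members' 20% lies between these shares. Which test lies behind that table was not stated. The 8 were S29, L44, S22, L42, L21 (Contig5549), L52, Tim22 and S9. The lowest rate in the authors' deposited table was that of S29 (Contig4507), 7.6e-05, with a PE to FE ratio of 0.371. L44 followed there, with a rate of 0.000153 and a ratio of 0.345. Of the 6 unigenes called by the 2-fold rule, S24 and L41 were not among the 8. For 16 members the authors' deposited table listed a rate of exactly 1, as it did for 8696 of the 18783 unigenes with a mean of 5 to 150 RPKM.

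The members were long for this assembly and often only partly covered by their hit. Their median length was 862 nucleotides (329 to 3213), against 634 for all unigenes that passed. Identity to the best hit had a median of 66.6% (36.6% to 99.6%), lowest in the large ribosomal subunit, with a median of 52.5%, and highest in the 2 prohibitins, at 99.6% and 97.0%. In 20 members less than 50% of the unigene was aligned, and in 18 at least 80% of the hit protein was. The best hit came from Ixodes in 23 members, from the mite Metaseiulus in 7 and from neither a tick nor a mite in 9. KOG placed 13 members in translation (class J), 11 in intracellular trafficking (class U) and 2 in protein turnover (class O), while 8 had no class. A GO term for the ribosome was attached to 20. The log2 ratio showed no clear course along level or length across members, with a Pearson's r of 0.10 against the log2 mean level (-0.13 without the scarcest member) and 0.05 against log2 length. Read numbers were high, with at least 200 in both libraries for 39 members.

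Further unigenes belong to the same machinery by their UniProt or KOG name only, because Nr words them otherwise; this list was drawn up after the values were seen. Of 37 further mitoribosomal unigenes 11 were higher in FE and 1 lower, at a relative median of 0.23 beside 0.26 for the mitoribosomal members. Their 29.7% called higher is near the background of 25.7%, and with the TMM factor 3 were higher and 1 lower. Examples chosen after their values were seen were L4 (Contig7364), 57.6 RPKM in FE and 20.0 in PE, and S12 (Contig22288), a protein of the decoding centre in bacteria, 31.1 and 11.0 RPKM. L2 (Contig42298), part of the peptidyl transferase region in bacteria, went the other way, at 6.06 and 15.5 RPKM. The METTL17-type unigene (Contig35977), which KOG places with the small subunit and whose relatives act in its assembly, had 23.1 and 6.565 RPKM, 3.51-fold (2.88 to 4.31).

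The import unigenes found in this way were 7, of which 3 were higher and 1 lower, or 1 and 1 with the TMM factor. Over all unigenes 25.7% were called higher and 11.1% lower. The relative median of the 7 was -0.03, so the list lay on the background median. Contig5910, named TIM17, a partner of TIM23 in the presequence channel, had 279 RPKM in FE against 134 in PE, 2.08-fold (2.01 to 2.16), a level above every one of the 40 members. Contig10167, TIM16 by UniProt, a part of the import motor, had 23.2 and 10.7 RPKM. Metaxins, outer membrane proteins of protein import that UniProt names after TOM37, went opposite ways: Contig41135 had 10.5 and 2.04 RPKM, and Contig38619 had 5.50 and 12.8. Both metaxin calls held with the TMM factor, whereas those of TIM17 and TIM16 did not.

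Of 28 further carriers, 7 (25%) were higher in FE and 1 was lower, at a relative median of 0.19, and 1 was higher and 2 lower with the TMM factor. The only higher call kept was that of Contig4510, of the PET8 or SLC25A26 type that brings S-adenosylmethionine into mitochondria, at 71.6 RPKM in FE against 13.1 in PE, 5.45-fold (5.08 to 5.84). The phosphate carrier (Contig2723), the most abundant, had 156 and 152 RPKM. An oxodicarboxylate carrier (Contig11547) was lower, at 0.976 RPKM in FE and 4.26 in PE, and kept its call with the TMM factor. With the members, the machinery so widened held 112 unigenes, 27 higher in FE and 3 lower, at a relative median of 0.17. The 24.1% called higher lies near the background of 25.7%, and with the TMM factor 7 were higher and 4 lower.

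**Figure D4:**
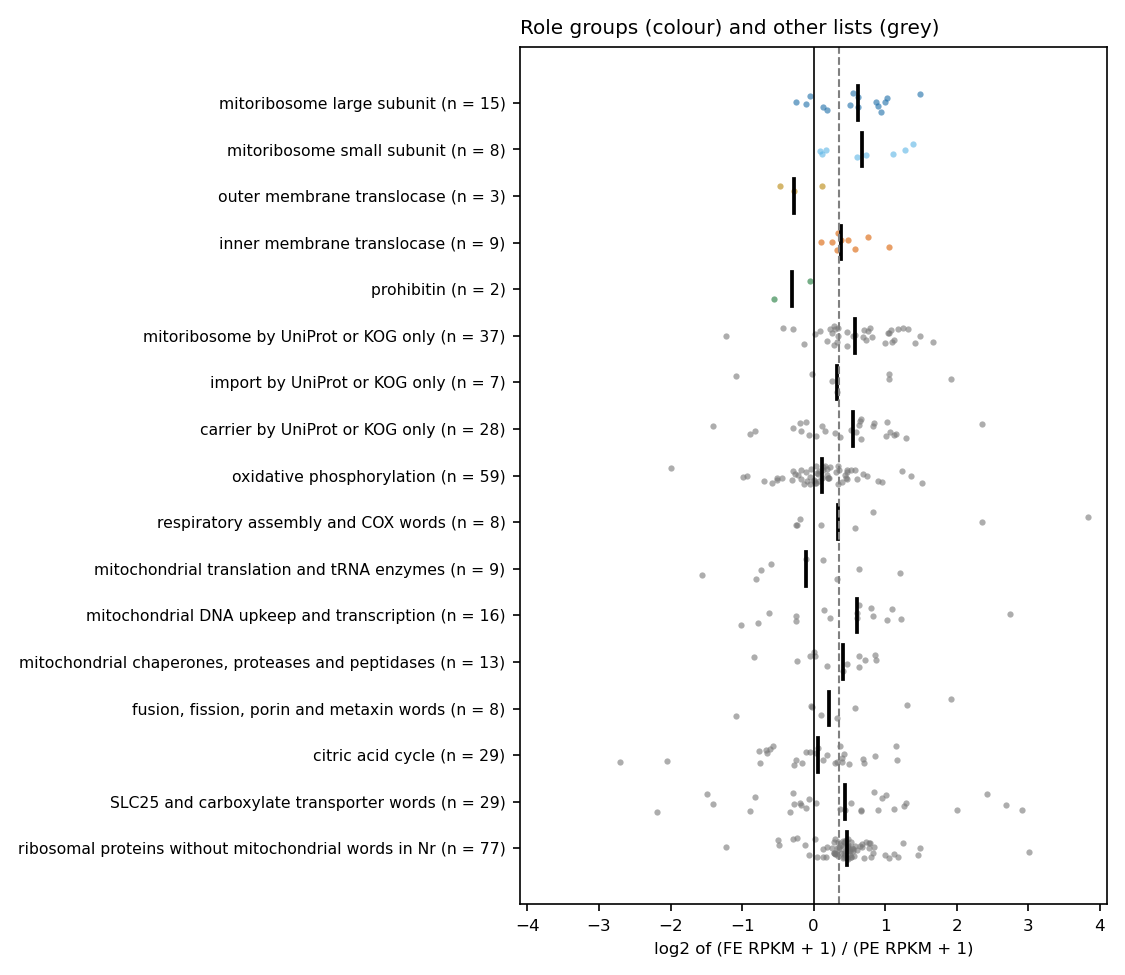
Log2 of the FE to PE ratio (RPKM + 1) of single unigenes (points, spread vertically for view) in 5 of the role groups, without the 3 carriers (colour) and in other lists (grey); black bars are medians, the solid line is 0 and the dashed line is the median of all unigenes, 0.36. Ribosomal groups sit right of the dashed line, TOM and prohibitins left of it, and oxidative phosphorylation and the citric acid cycle left of it.

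Other mitochondrial lists lay on either side of the background median, and their calls moved with the scaling. Subunits of oxidative phosphorylation, whose core parts the mitochondrial ribosome makes, had 3 of 59 unigenes higher and 1 lower, at a relative median of -0.24 beside 0.26 for the mitoribosomal members. With the TMM factor 2 of them were higher and 4 lower, so few were called on either scaling. For this list and those below, the shares over all unigenes are 25.7% higher and 11.1% lower. With the TMM factor those shares are 18.3% and 15.6%. The citric acid cycle had 2 of 29 higher and 2 lower (-0.30), but 0 higher and 6 lower with the TMM factor. Mitochondrial translation factors and tRNA charging enzymes had 1 of 9 higher and 1 lower (-0.47), or 0 and 3 with the TMM factor. Their relative median turned to 0.28 when only best hits in ticks and mites were kept, so this list has no settled direction. Genes of mitochondrial DNA upkeep and transcription had 4 of 16 higher and 1 lower (0.24), or 1 and 2 with the TMM factor. Chaperones and proteases of the organelle, which fold and clear imported proteins, had 13 unigenes and no call (0.05), or 1 lower with the TMM factor.

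In 3 further lists the words took in more than 1 kind of protein. Words for the assembly of respiratory complexes, which also matched the structural subunits COX12 and COX13 of cytochrome c oxidase, had 2 of 8 higher and none lower (-0.02), on either scaling. The larger of these calls was a COX12-type subunit (Contig19729). Words for fusion, fission and cristae, which also matched the outer membrane porin and the metaxins, had 2 of 8 higher and 1 lower (-0.15). The metaxins Contig41135 and Contig38619, already described among the import unigenes, are 2 of these 3 calls. Words for SLC25 carriers not used by the member rule had 8 of 29 higher and 3 lower (0.07), or 5 and 4 with the TMM factor. These overlap the further carriers above and also matched Contig7068, a Na+/dicarboxylate and tricarboxylate transporter of another family, which gave the largest call.

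Ribosomal proteins without a mitochondrial word in Nr had 8 of 77 higher and 1 lower (0.10). Without the 21 of them that UniProt or KOG names as mitochondrial, 3 of 56 were higher and none lower (0.10). These 56, mostly cytosolic, had an interquartile range of 0.21 against 0.82 for the 23 mitoribosomal members on the log2 scale. The 56 were also far more abundant, with a median level of 601 RPKM against 41.3 for the 23. Whether level bears on the spread was not tested. The standard deviations were close, 0.47 and 0.50, since single unigenes of the 56 reached from -0.50 to 3.004. The middle of the list was thus narrower for the 56, while its extremes were wider.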

How the data were processed

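Midgut RNA of fully and partially engorged ticks was analysed, 1 library per state. The authors deposited read counts per unigene, whole numbers without normalization, and RPKM values beside them, per the file headers. A comparison table deposited by the authors gave the ratio (fold) of PE over FE RPKM, a p-value and its false discovery rate, from a test that was not stated. The authors deposited Nr, UniProt, KOG and GO annotation with percent identity and alignment score. The submitters' processing notes name CASAVA 1.8; the assembler, aligner and counter: not given in the sources used here. The table held 65535 unigenes, 86.8% of the FE and 87.0% of the PE reads implied by count, RPKM and length, so unigenes outside it were not analysed here.

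With 1 library per state no test was run. Folds in the text are ratios of RPKM with nothing added. Intervals are 95% exact conditional binomial intervals on the implied totals; they cover counting error only. TMM factors came from edgeR 4.0.16; other steps used Python 3.11.15, numpy 2.4.6, pandas 2.3.3 and scipy 1.17.1. The size rule was tested on simulated counts. Those counts held counting error only, and the changes put in were larger than that of any member. The simulation therefore does not cover calls near 2-fold, nor variation between ticks or libraries. Members and lists were chosen with earlier results of these data known. Members named by rule were, per role, the 3 most abundant, the extreme ratios at 5 RPKM or more and every call; the remaining members are named for completeness. For each related list the rule took its most abundant unigene and its largest call; their values are not all printed.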

Additional observations from a re-analysis of the deposited data

How the results depend on the processing

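No paired analysis was possible because each state has 1 library and no test was run; for the same reason no replicate could be left out. The count of 6 members higher in FE became 2 with the TMM factor, 3 after centring on the median ratio of unigenes with at least 10 RPKM in both libraries (a shift of 0.22 on the log2 scale over 8121 unigenes), 3 with a pseudocount of 5, 17 at 1.5-fold and 27 with the unigenes placed by UniProt or KOG, where 3 in place of 0 were lower. The other alternatives gave 5 to 7 higher, and none of the others gave a member lower. The relative median of members, 0.14, was 0.25 with a pseudocount of 5 and 0.28 without a filter; elsewhere it ran from 0.05 to 0.22. With a pseudocount of 5 and without a filter in turn, the large subunit read 0.37 and 0.40, the small subunit 0.446 and 0.454, the TOM subunits -0.44 and -0.49, and the TIM subunits 0.18 and 0.16. Over unigenes of at least 500 nucleotides the small subunit read 0.73. Restricting hits to ticks and mites left no TOM subunit, so no value was given. Of the 9 related lists 4 had a relative median above 0, and 2 did with the TMM factor, with a pseudocount of 0.1 and over unigenes of at least 500 nucleotides. The cause of these shifts was not tested, except that without a filter the background gains scarce unigenes. Among the named members' log2 ratios no direction was reversed; 10 values lost and 5 gained a call.

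Depth limits the solute carrier most, with 12 and 25 reads. It also limits the calls at the threshold. The counting intervals of L41 (1.81 to 2.45), Tim22 (1.93 to 2.33) and L21 (1.82 to 2.26 for Contig5549, 1.71 to 2.28 for First_Contig582) all span 2-fold. Beyond counting error, variation between ticks was not measured.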
